A study of Rattus norvegicus with 16 samples.

Results

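A set of 10 genes of the sarcomeric myosin family, the skeletal forms of the motor protein of muscle, was followed in RNA sequencing libraries of the rat ventral prostate. They were 6 heavy chains (Myh1, Myh2, Myh3, Myh4, Myh7 and Myh8) and 4 light chains (Myl1, Mylpf, Myl2 and Myl3), out of 33197 gene names in either of the deposited count tables. They were taken by gene symbol, and they were picked because such genes stood high in young offspring of protein-restricted dams. Their diet difference at that age is therefore given as a description with no test. The table of postnatal day (PND) 21 was read for 8 of the 10 genes among its 28688 entries, and Myh1 and Myh2 were not analysed here at that age. The table of PND540 was read for all 10 among 24218 entries.

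The libraries came from offspring of dams fed a low protein diet (6% protein) during gestation and lactation, called GLLP, or a normal diet (17% protein), called CTR. At PND21 there were 3 GLLP and 4 CTR libraries, and at PND540 there were 4 GLLP and 5 CTR libraries. RNA was taken from whole frozen glands, no rat strain or genotype is named in the labels, and no offspring carried a label of any treatment other than the diet of the dam. Nothing in the labels says which offspring shared a litter, so p-values measure only the spread between these samples.

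Muscle myosin is built of a pair of heavy chains, each with a motor domain and a long tail, and of essential and regulatory light chains that wrap around the neck of the motor. Many such molecules pack by their tails into the thick filament and pull on actin. Which heavy chain a fibre makes sets how fast it shortens: Myh4, Myh1 and Myh2 encode the fast chains IIb, IIx and IIa, Myh7 encodes the slow chain shared with the heart, and Myh3 and Myh8 encode the embryonic and perinatal chains of developing fibres. The contractile cells of the gland's own stroma are smooth muscle cells, which use other myosin II genes, among them Myh11 and Myl9.

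The libraries held 28748604 to 39161666 counts each. Expression is given as CPM (counts scaled to a common library total) with library sizes scaled by TMM, a method that balances the bulk of genes between libraries. A value of 2 counts was more frequent than a value of 1 in both tables (5800 against 4428 values at PND21, and 6904 against 3331 at PND540), so counts are not all independent molecules and an interval from counts covers counting error only in part. At PND21, mitochondrial genes took 0.282% of the counts of CTR replicate 1 and 3.66% to 5.02% elsewhere. At PND540, CTR replicate 5 had a median correlation of 0.851 with the other libraries, against at least 0.956 for the others.

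The 4 genes with the most counts in GLLP at PND21 are shown by the 250 bases before their annotated starts, since these genes stood high together. The sequences are the RefSeq windows of the GRCr8 assembly, which is not the build named for the counts. They run 5′ to 3′ on the strand of the gene. Capitals mark matches, on either strand, to the E-box CANNTG, the TATA box TATAAA, the M-CAT element CATTCC, and the MEF2 and CArG elements. Myl1 has a pair of windows, and it is known to be transcribed from 2 promoters that give a long and a short form of the essential light chain. Mylpf carries the name Myl11 in RefSeq.
Myh4, chr10:52421898-52422147, + strand: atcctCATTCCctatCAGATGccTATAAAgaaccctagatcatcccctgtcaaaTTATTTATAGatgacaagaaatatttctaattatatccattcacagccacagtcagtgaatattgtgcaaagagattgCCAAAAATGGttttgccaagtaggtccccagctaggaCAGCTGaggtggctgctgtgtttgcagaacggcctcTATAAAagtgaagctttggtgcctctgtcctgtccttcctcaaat
Myh8, chr10:52462259-52462508, + strand: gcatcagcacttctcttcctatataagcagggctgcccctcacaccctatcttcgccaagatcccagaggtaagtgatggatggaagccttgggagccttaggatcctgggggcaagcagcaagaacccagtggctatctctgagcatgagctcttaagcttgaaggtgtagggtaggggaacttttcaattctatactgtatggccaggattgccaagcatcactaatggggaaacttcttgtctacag
Myl1, the distal window, chr9:75907697-75907946, - strand: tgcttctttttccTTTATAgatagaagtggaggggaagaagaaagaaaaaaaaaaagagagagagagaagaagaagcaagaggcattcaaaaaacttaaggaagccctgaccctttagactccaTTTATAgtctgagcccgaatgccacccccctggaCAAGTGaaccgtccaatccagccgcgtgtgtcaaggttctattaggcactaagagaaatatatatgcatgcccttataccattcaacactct
Myl1, the proximal window, chr9:75897800-75898049, - strand: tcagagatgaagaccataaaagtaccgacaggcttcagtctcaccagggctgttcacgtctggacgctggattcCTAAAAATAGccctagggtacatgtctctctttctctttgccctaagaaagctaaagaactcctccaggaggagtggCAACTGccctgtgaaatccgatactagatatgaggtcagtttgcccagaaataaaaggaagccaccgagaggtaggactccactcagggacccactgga
Mylpf, chr1:191260039-191260288, + strand: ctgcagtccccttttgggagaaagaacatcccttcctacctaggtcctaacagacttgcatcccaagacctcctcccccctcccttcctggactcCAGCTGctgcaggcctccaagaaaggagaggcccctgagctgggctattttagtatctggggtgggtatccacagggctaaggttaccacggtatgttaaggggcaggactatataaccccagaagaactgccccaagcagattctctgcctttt
The Myh4 window held matches to all 5 elements, with 3 TATA matches, 1 of them inside the MEF2 match. The Myh8 window held none, which says only that these letters are not in it. The E-box occurred in 65.5% of 33469 RefSeq promoter windows of the same length, the TATA box in 12.9%, M-CAT in 12.1%, MEF2 in 2.96% and CArG in 1.5%. Windows were matched for 9 of the 10 genes, the exception being Myl2. On chromosome 10 the annotation placed Myh3, Myh2, Myh1, Myh4, Myh8 and Myh13 in that order, so 5 of the 6 heavy chains studied here lie in a single cluster, while Myh7 lies beside Myh6 on chromosome 15. Reads from such similar heavy chain genes may have been split between them, and the use of strand in counting is not given in the sources used here, so the counts of single heavy chains are uncertain to that extent.

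At PND21 the fast chains were abundant in every GLLP gland and low in every CTR gland. Myh4, the fastest heavy chain, had 8320, 6190 and 3923 counts in GLLP replicates 2, 3 and 4, against 104, 17, 43 and 23 counts in CTR replicates 1 to 4. The lowest GLLP library thus held far more Myh4 than the highest CTR library, and replicate 1 was the highest of the CTR glands. The level averaged 175 ± 81.7 CPM in GLLP (SD, n = 3) and 1.37 ± 1.14 CPM in CTR (SD, n = 4), a log2 fold change of 7.00 (SE 0.60). In these bulk libraries, more muscle cells and more RNA per muscle cell cannot be told apart.

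Myl1, the essential light chain of fast fibres, had 1995, 2262 and 1543 counts in GLLP, against 8, 8, 4 and 2 counts in CTR. Its groups were the farthest apart of the 8 genes, with levels of 53.8 ± 9.89 CPM in GLLP and 0.159 ± 0.0838 CPM in CTR (SD, n = 3 and 4) and a log2 fold change of 8.36 (SE 0.28). Mylpf, the regulatory light chain of fast fibres, had 1872, 1599 and 1794 counts in GLLP, against 106, 102, 103 and 77 counts in CTR. Its level averaged 49.7 ± 11.6 CPM in GLLP (SD, n = 3) and 2.83 ± 0.369 CPM in CTR (SD, n = 4), a 17.5-fold difference in the means (log2 fold change 4.13, SE 0.19). The groups were again far apart, but all 4 CTR glands held a steady low level of Mylpf, unlike Myl1. The ratio of Myl1 to Mylpf counts was 1.07, 1.41 and 0.860 in GLLP and 0.0755, 0.0784, 0.0388 and 0.0260 in CTR. The CTR glands therefore contained Mylpf counts that were not matched by Myl1 in the proportion seen in GLLP.

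**Figure D1:**
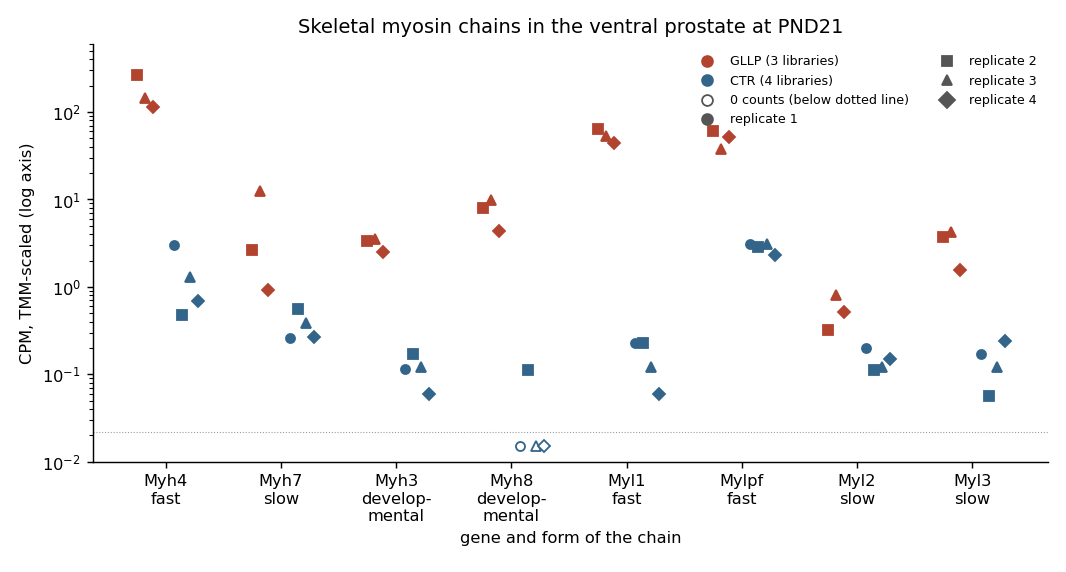
Expression of the 8 skeletal myosin chains in each PND21 library, as TMM-scaled CPM on a log axis; each point is 1 library, GLLP in red to the left of CTR in blue, marker shapes give the replicate number, and open points below the dotted line are libraries with 0 counts. Every GLLP point lies above every CTR point of the same gene, with the smallest gap at Myl2 and the widest at Myl1.

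The slow chains were also higher in GLLP, at lower levels and with wider scatter. Myh7, the slow heavy chain, had 83, 532 and 32 counts in GLLP, against 9, 20, 13 and 9 counts in CTR. GLLP replicate 3 stood far above the other GLLP libraries, and replicate 4 was not far above the highest CTR library. The means were 5.33 ± 6.19 CPM in GLLP (SD, n = 3) and 0.371 ± 0.143 CPM in CTR (SD, n = 4), a log2 fold change of 3.84 (SE 0.82), and without GLLP replicate 3 it was 2.26. Myl3, the essential light chain of slow fibres and of the heart ventricle, had 117, 182 and 54 counts in GLLP, against 6, 2, 4 and 8 counts in CTR (log2 fold change 4.41, SE 0.48). Myl2, the regulatory light chain of the same fibres, had 10, 35 and 18 counts in GLLP, against 7, 4, 4 and 5 counts in CTR. It had the smallest difference of the 8 genes, a log2 fold change of 1.91 (SE 0.45), and its groups came close to touching.

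The developmental chains, made by fibres that form or regrow, were also higher in every GLLP library. Myh8, the perinatal heavy chain, had 251, 425 and 151 counts in GLLP, against 0, 4, 0 and 0 counts in CTR. CTR replicate 2 was the only CTR library with a Myh8 count, and in the others a count of 0 allows up to 0.0866, 0.0901 and 0.0896 CPM in replicates 1, 3 and 4. The log2 fold change of 7.83 (SE 0.66) rests in CTR on those 4 counts. Myh3, the embryonic heavy chain, had 105, 150 and 87 counts in GLLP, against 4, 6, 4 and 2 counts in CTR. Its GLLP libraries were close to each other, with means of 3.13 ± 0.54 CPM in GLLP (SD, n = 3) and 0.116 ± 0.045 CPM in CTR (SD, n = 4) and a log2 fold change of 4.70 (SE 0.32).

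In all 8 chains each GLLP library exceeded each CTR library, and all 8 passed the filter on low counts. Among the 14915 genes tested, 9.49% showed the same separation, 1.01% were called higher in GLLP and 0.107% were called lower (edgeR, adjusted p under 0.05). Because the genes were picked on this contrast, nothing is read from their own count. Their median log2 fold change was 4.56, with a range of 1.91 to 8.36, beside a median of -0.0038 over all tested genes. Summed over the 8 chains, the GLLP libraries held 219 to 410 CPM and the CTR libraries 3.76 to 7.04 CPM. The number of genes called higher, 150, depended on single libraries: it was 795 without GLLP replicate 2, and 60 to 68 without GLLP replicate 3 or any single CTR library.

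The make-up of the heavy chain counts was described within each library, as shares of raw counts over Myh4, Myh7, Myh3 and Myh8, which encode proteins of similar size. Myh4 made up 95.0%, 84.8% and 93.6% of the 8759, 7297 and 4193 heavy chain counts in GLLP replicates 2, 3 and 4. In CTR replicates 1 to 4 it made up 88.9%, 36.2%, 71.7% and 67.6% of 117, 47, 60 and 34 counts. Replicate 1 was the only CTR library within the range of GLLP, and the exact 95% binomial intervals were wide in CTR: 22.7% to 51.5% in replicate 2, and 49.5% to 82.6% in replicate 4.

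The share of Myh7 went the other way. It was 0.948%, 7.29% and 0.763% in GLLP, against 7.69%, 42.6%, 21.7% and 26.5% in CTR, so every CTR share lay above every GLLP share. GLLP replicate 3, at 7.29% (exact 95% interval 6.70% to 7.91%), and CTR replicate 1, at 7.69% (3.58% to 14.1%), did not differ beyond counting error. Myh8 made up 2.87%, 5.82% and 3.60% in GLLP. In CTR its share was 8.51% in replicate 2, where it rested on 4 counts, and 0 in the others. The exact 95% upper limit of such a 0 was 3.10% in replicate 1, above the lowest GLLP share, and 10.3% in replicate 4, above the highest, so a lower Myh8 share in CTR was not detectable at this depth. A count of 0 (3 counts of the total) allows up to 2.56% and 8.82% in these libraries. Myh3 made up 1.20%, 2.06% and 2.07% in GLLP and 3.42%, 12.8%, 6.67% and 5.88% in CTR. Those CTR shares rested on 4, 6, 4 and 2 counts. In CTR replicates 1, 3 and 4 the exact 95% interval included GLLP shares, being 0.720% to 19.7% in replicate 4. In CTR replicate 2 it began at 4.83%, above them.

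**Figure D2:**
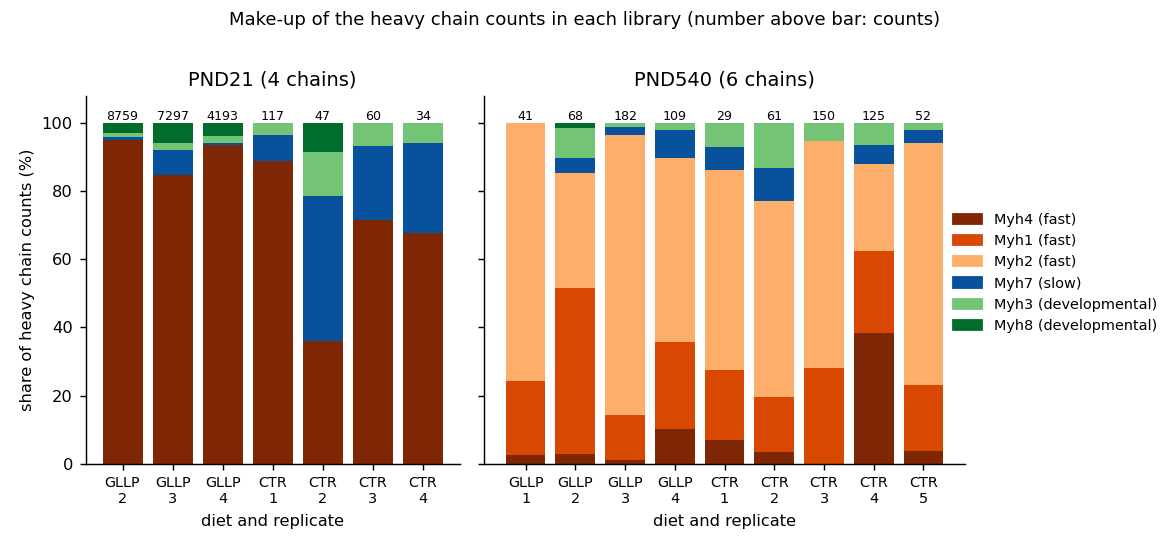
Share (%) of each skeletal heavy chain in the heavy chain counts of each library, with the number of counts above each bar, over 4 chains at PND21 and 6 chains at PND540; GLLP libraries stand left of CTR libraries. Myh4 fills 84.8% to 95.0% of the GLLP bars at PND21. Myh2 is the largest part of most bars at PND540, where each bar rests on 29 to 182 counts. Shares cannot be compared between the ages, since Myh1 and Myh2 were not analysed at PND21.

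The 3 GLLP glands at PND21 differed from each other in which chains were high. Replicate 2 was the highest of the 3 for the fast chains Myh4, Myl1 and Mylpf. Replicate 3 was the highest for the other 5: the slow chains Myh7, Myl2 and Myl3 and the developmental chains Myh3 and Myh8. The highest GLLP library exceeded the lowest 13.5-fold for Myh7, 2.73-fold for Myl3, 2.54-fold for Myl2, 2.37-fold for Myh4 and 2.28-fold for Myh8. The corresponding spread was 1.62-fold for Mylpf, 1.44-fold for Myl1 and 1.39-fold for Myh3.

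Among troponins, the calcium switch of the thin filament, the order of the 3 glands was partly alike. The fast forms Tnni2 and Tnnt3 were highest in replicate 2, as the fast myosins were, but fast Tnnc2 was highest in replicate 4. Slow Tnni1 was highest in replicate 3, with 1.58, 3.78 and 1.24 CPM in replicates 2, 3 and 4, as the slow myosins were. Slow Tnnt1 was highest in replicate 2 and Tnnc1 in replicate 4. With 3 libraries this order is a description only.

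Genes that work beside myosin in the sarcomere were higher in GLLP at PND21 as well. Of 10 tested thick filament partners, which bind, space or turn over myosin, 8 were called higher in GLLP and none lower, with a median log2 fold change of 2.67. This list and those below were chosen with earlier results of these data known, so their calls are no independent support for the myosin result. Over all 14915 tested genes, 1.01% were called higher in GLLP. Myosin binding protein C of slow fibres (Mybpc1) had 29.8, 23.0 and 16.9 CPM in GLLP, against 0.577, 0.735, 0.331 and 0.657 CPM in CTR. No GLLP library came near a CTR library, and the log2 fold change was 5.33 (SE 0.28, edgeR adjusted p = 3.1e-05). The M-band protein Myom2 changed by 4.26 (SE 0.40, edgeR adjusted p = 0.00119), and Trim63, a ubiquitin ligase that marks thick filament proteins for breakdown, by 2.68 (SE 0.38, edgeR adjusted p = 0.0145). Mybpc1 and Myom2 passed in every fit that left out 1 library, while Trim63 did not pass without CTR replicate 2, 3 or 4 (edgeR adjusted p = 0.0588, 0.0528 and 0.0517). The count of called partners was 3 without CTR replicate 2, 3 or 4, 4 without CTR replicate 1 and 5 without GLLP replicate 3. The untested partner Trim55, also a ubiquitin ligase of the sarcomere, had 20, 13 and 8 counts in GLLP and 0 counts in all 4 CTR libraries.

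On the thin filament, all 3 fast troponins were called higher in GLLP, with log2 fold changes of 5.77 for the inhibitory subunit Tnni2 (SE 0.23, edgeR adjusted p = 4.41e-06), 3.07 for the tropomyosin-binding subunit Tnnt3 and 1.33 for the calcium-binding subunit Tnnc2. Of the 3 slow troponins, Tnni1 was called at 5.79 (SE 0.75, edgeR adjusted p = 0.00885) and Tnnt1 at 1.30, and Tnnc1 had 0.82 without passing. Tnni2, Tnnt3 and Tnni1 passed in every fit that left out 1 library, whereas Tnnc2 did not pass without CTR replicate 2, 3 or 4, nor Tnnt1 without GLLP replicate 3 or CTR replicate 1, 3 or 4. Among 7 other thin filament genes, the filament nucleator Lmod3, the cardiac actin Actc1 and the skeletal actin Acta1 were called higher, at 5.24, 2.21 and 0.71. Each of these 3 calls was lost in 4 of the 7 fits that left out 1 library, and none of the 3 remained without CTR replicate 1. Acta1 stood at 543 ± 65.9 CPM in GLLP (SD, n = 3) and 331 ± 37.3 CPM in CTR (SD, n = 4), so its transcripts were frequent in the CTR glands too, unlike those of the myosins.

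Regulators of the muscle programme were mostly not called. Of 10 tested transcription factors, only Myog, which drives the fusion and differentiation of muscle precursors, was called: it had 22, 20 and 11 counts in GLLP and 0 in each CTR library, at least 22.7-fold higher when 3 counts are allowed over the CTR group (edgeR adjusted p = 0.0361). The call was lost without GLLP replicate 3 or any single CTR library (edgeR adjusted p of 0.0609 to 0.173). Of the factors related to Myog, none of which could be tested, Myod1 had 35, 5 and 10 counts in GLLP, Myf6 had 14, 11 and 16, and Myf5 had 4, 0 and 0, with 0 in all 4 CTR libraries for each. The T-box factor Tbx15, a factor of fast fibres in the mouse, was also untested, with 7, 10 and 10 counts in GLLP and 0 in all 4 CTR libraries. Pax7, the factor of muscle stem cells, had 0 counts in all 3 GLLP libraries and at most 2 in CTR. The Mef2 factors, which other cells also use, did not pass: Mef2c had a log2 fold change of 0.90 (edgeR adjusted p = 0.0782) and Mef2d of -0.24 (edgeR adjusted p = 0.183). Smyd1, a methyltransferase needed for thick filament assembly, was untested with 26, 10 and 2 counts in GLLP and 0 in CTR, and the myosin chaperone Unc45b had 0.79 (edgeR adjusted p = 0.167).

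**Figure D3:**
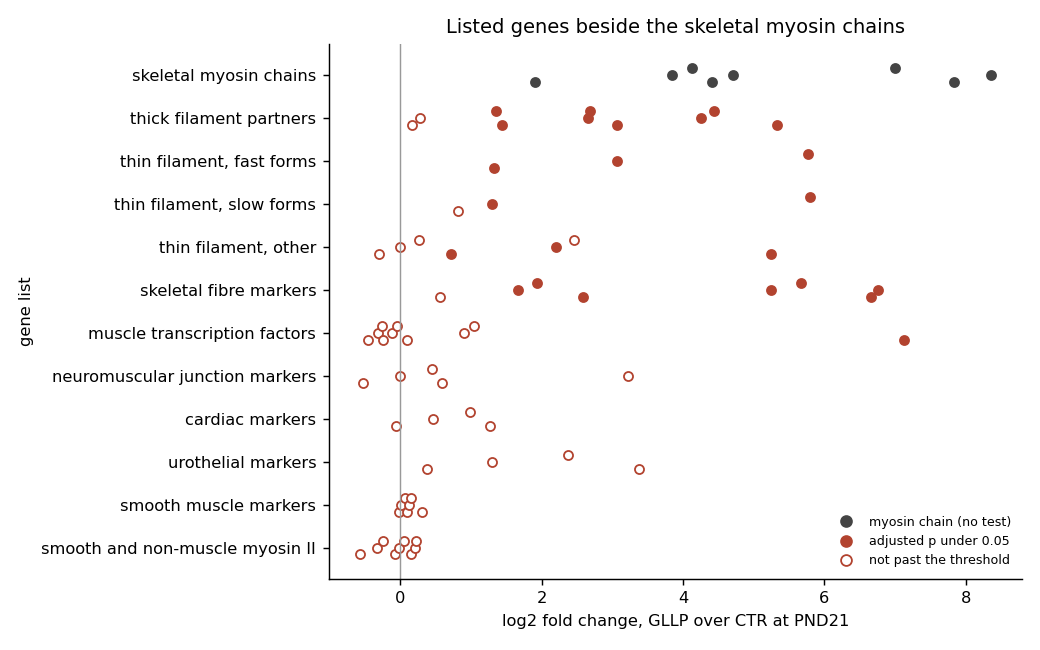
Log2 fold change of GLLP over CTR at PND21 for the myosin chains and the genes of the lists, 1 point per tested gene; filled red points had an edgeR adjusted p under 0.05, open points did not, and the dark points of the myosin chains carry no test. The lists of skeletal sarcomere and fibre genes reach 5 or more, while smooth muscle and non-muscle myosin genes lie between -0.56 and 0.31; the Myog point at 7.12 depends on the prior count, since its CTR libraries are at 0.

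Other markers of skeletal fibres moved with the myosins. Of 8 tested, 7 were called higher in GLLP: among them muscle creatine kinase (Ckm, log2 fold change 5.67, SE 0.21, edgeR adjusted p = 3.25e-06), the fast-fibre actinin Actn3 (5.25), the calcium channel subunit Cacna1s (6.66) and the calcium buffer parvalbumin (Pvalb, 2.59), and these 4 passed in every fit that left out 1 library. The summed level of the 8 markers read at this age was 151 to 231 CPM in GLLP and 36.4 to 44.0 CPM in CTR. Ryr1, the calcium release channel, did not pass (0.56, edgeR adjusted p = 0.0773). None of 5 neuromuscular junction genes passed, although the acetylcholine receptor subunit Chrnd had a log2 fold change of 3.23 (edgeR adjusted p = 0.0825). Chrnd passed with library size alone and with DESeq2 (adjusted p = 0.0401 and 0.0169).

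Other myosins and other tissues were read the same way. Of the other striated chains, none of the 3 tested (Myh6, Myh7b and Myl4) was called. None of 9 smooth and non-muscle myosin II genes was called, and their median log2 fold change was -0.01. Smooth muscle Myh11 had 1045 ± 114 CPM in GLLP (SD, n = 3) and 1053 ± 41.2 CPM in CTR (SD, n = 4), and the lowest of the 9 was non-muscle Myh9 with -0.56 (SE 0.23, edgeR adjusted p = 0.237). None of 7 smooth muscle markers was called. Of the heart markers, Nppb had 0 counts in all GLLP libraries, and Nppa and Myl7 had at most 4 and 7 counts there. The cardiac troponin Tnni3 had 11, 21 and 11 counts in GLLP, against 4, 13, 4 and 1 counts in CTR. Its log2 fold change was 1.27 (SE 0.62, edgeR adjusted p = 0.293). The whole list summed to 92.8 to 125 CPM in GLLP and 61.4 to 88.1 CPM in CTR, most of it the troponin gene Tnnt2, and none of 4 tested was called. Without GLLP replicate 2 the calls included Tnnt2 (log2 fold change 0.59, edgeR adjusted p = 0.0388) and Myh9 (-0.87, edgeR adjusted p = 0.0331), and with DESeq2 they included non-muscle Myh14 (-0.32, adjusted p = 0.0325). The cardiac heavy chain Myh6, which neighbours Myh7, had 5.53, 6.81 and 7.61 CPM in GLLP, against 3.26, 3.03, 2.55 and 4.60 CPM in CTR. Every GLLP library was above every CTR library, but the log2 fold change of 0.99 (SE 0.22) did not pass (edgeR adjusted p = 0.0754), and it passed with library size alone, with DESeq2 and without GLLP replicate 2 (adjusted p = 0.0358, 0.00304 and 0.0267).

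Markers of other cell types were summed in the same PND21 libraries. Markers of the urothelium summed to 12.1 to 46.7 CPM in GLLP and 10.2 to 11.8 CPM in CTR. None of the 4 tested passed, and the urothelial keratin Krt4 had 4.66, 0.816 and 14.7 CPM in GLLP replicates 2, 3 and 4, against 0.149 to 1.21 CPM in CTR. Upk2, untested at this age, had 16, 8 and 81 counts in GLLP, against 0, 0, 4 and 0 counts in CTR. Upk3a, also untested, had 31, 0 and 122 counts in GLLP, against 4, 2, 0 and 0 counts in CTR. GLLP replicate 4, highest for the sum of these markers, was the lowest for Myh4, Myh7, Myh3, Myh8, Myl1 and Myl3. Mylpf was lowest in replicate 3 and Myl2 in replicate 2. This order over 3 libraries is a description only. The secretory markers of the ventral prostate summed to 23844 to 32607 CPM in GLLP and 38299 to 47638 CPM in CTR, with none of 8 called. Without GLLP replicate 2, 1 urothelial and 3 secretory genes were called, and without GLLP replicate 3, 1 urothelial gene. DESeq2 called the urothelial Upk1b and Krt4 higher (adjusted p = 0.00283 and 0.026) and the secretory Scgb2a1 and Scgb1d2 lower (adjusted p = 0.000744 and 0.00142), and library size alone called Upk1b (edgeR adjusted p = 0.0455). Secretory marker transcripts were thus frequent in every PND21 library. The part of the urothelial and secretory levels in the myosin result was not tested.

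At PND540 the groups overlapped for 7 of the 8 chains described at PND21, most of whose libraries held fewer than 10 counts. Myh4 had 1, 2, 2 and 11 counts in GLLP replicates 1 to 4, against 2, 2, 0, 48 and 2 counts in CTR replicates 1 to 5. The groups overlapped, and replicate 4 was the highest library in each. Myl1 had 6, 7, 0 and 12 counts in GLLP and 2, 7, 2, 17 and 1 in CTR, again with replicate 4 highest in both. Of the slow and developmental chains, Myh7 had at most 9 counts in any library, Myh3 at most 8, Myl3 at most 6, Myl2 at most 3 and Myh8 at most 1. These 7 genes did not pass the filter on low counts.

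Mylpf, Myh2 and Myh1 passed that filter and were tested in libraries that had no part in choosing them. Mylpf had 131, 126, 122 and 124 counts in GLLP, against 120, 155, 146, 211 and 314 counts in CTR. As CPM the GLLP libraries lay between 3.52 and 4.07 and the CTR libraries between 4.17 and 10.8, so every GLLP library was below every CTR library, as for 0.21% of 14767 tested genes. The difference was small and uneven, and CTR replicate 5 was the farthest from the rest. The log2 fold change was -0.59 (95% interval -1.37 to 0.18, edgeR adjusted p = 0.914), and -0.24 without CTR replicate 5. With library size alone the groups overlapped, at 3.38 to 4.23 CPM in GLLP and 3.97 to 8.35 CPM in CTR.

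Myh2, the IIa heavy chain of fast oxidative fibres, had 31, 23, 150 and 59 counts in GLLP, against 17, 35, 100, 32 and 37 counts in CTR. Replicate 3 was the highest library of each group and the groups overlapped. The log2 fold change was 0.63 (95% interval -0.81 to 2.07, edgeR adjusted p = 0.914), and it turned to -0.23 without GLLP replicate 3 (edgeR adjusted p = 0.959). Myh1, the IIx heavy chain, had 9, 33, 24 and 28 counts in GLLP, against 6, 10, 42, 30 and 10 counts in CTR, with a log2 fold change of 0.34 (95% interval -0.98 to 1.65, edgeR adjusted p = 0.914). The groups overlapped here too. No gene of the whole table was called at PND540 with edgeR (0% of 14767 in either direction), 123 genes (0.833%) had an unadjusted p under 0.05, and DESeq2 called 2. None of the listed sarcomere, fibre or cell type genes was called at that age.

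Among heavy chains at PND540, Myh2 held most counts, with a median share of 64.9% in GLLP (33.8% to 82.4%) and 58.6% in CTR (25.6% to 71.2%). There were exceptions in each diet: in GLLP replicate 2 Myh1 held 48.5% of 68 counts and Myh2 33.8%, and in CTR replicate 4 Myh4 held 38.4% of 125 counts and Myh2 25.6%. These shares rest on 41 to 182 heavy chain counts in GLLP and 29 to 150 in CTR. The ratio of Myl1 to Mylpf counts was 0 to 0.0968 in GLLP and 0.0032 to 0.0806 in CTR. It rested on at most 12 Myl1 counts in a GLLP library and 17 in a CTR library. Both ranges reached below and above the 0.0260 to 0.0784 of the CTR glands at PND21. Every value was below the 0.860 to 1.41 of the GLLP glands at PND21.

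The levels of both ages were set side by side. The lowest, median and highest Myh4 levels were 113, 144 and 268 CPM in GLLP at PND21, and 0.481, 0.989 and 3.00 CPM in CTR at PND21. At PND540 the corresponding medians were 0.0615 CPM in GLLP and 0.0687 CPM in CTR. Mylpf had medians of 51.7 CPM in GLLP and 2.97 CPM in CTR at PND21, and 3.81 CPM in GLLP and 4.34 CPM in CTR at PND540. The tables of the ages were scaled separately and differ in their gene annotation, so levels across ages were not tested.

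**Figure D4:**
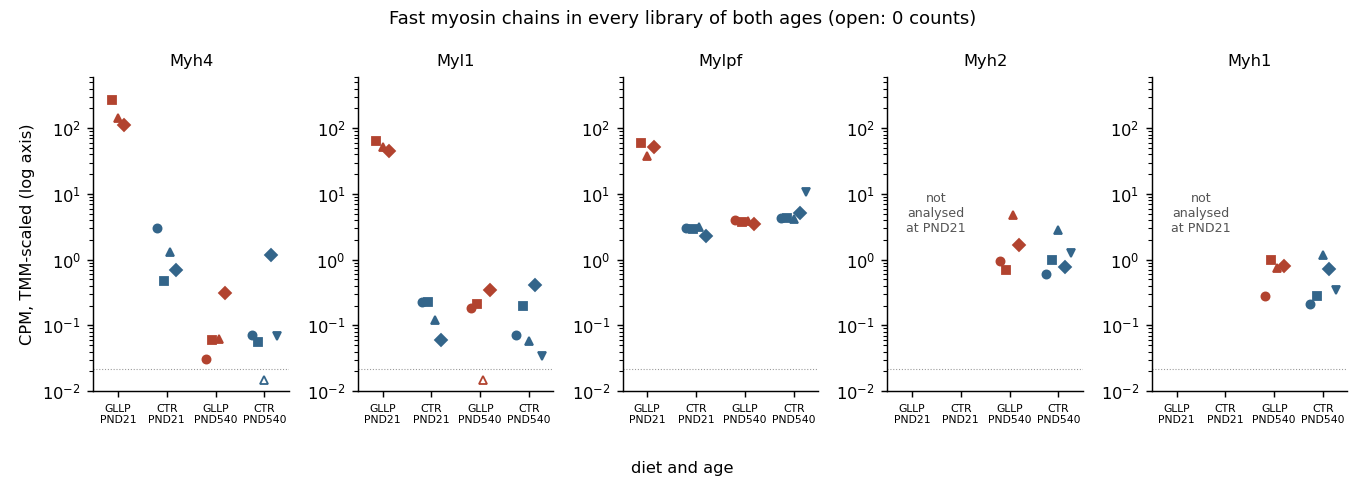
Expression of the 5 fast chains in every library, as TMM-scaled CPM on a log axis, by diet and age; each point is 1 library, GLLP in red left of CTR in blue within an age, marker shapes give the replicate number (circle 1, square 2, upward triangle 3, diamond 4, downward triangle 5), and open points below the dotted line are libraries with 0 counts. Myh4 and Myl1 are high in the GLLP libraries of PND21 alone, while Mylpf keeps a level of 2.30 to 10.8 CPM in all the other libraries.

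The genes with the pattern most like that of the myosins over the 7 PND21 libraries were taken from 12005 candidates by their Pearson r with the mean log2 CPM of the 8 chains. Among them were Ckm (r = 0.995), Actn3 (0.993), the fast-fibre Z-disc protein Myoz1 (0.990), Cacna1s (0.990), Mybpc1 (0.989), Sypl2, a membrane protein of the muscle triad (0.988), and Apex1, a DNA repair enzyme of all cells (0.988). The 7 libraries fall into 2 clusters by diet, so these values mostly record the group difference. Apex1 reached its r with means of 40.4 CPM in GLLP and 31.8 CPM in CTR. Over the 9 PND540 libraries r with the same 8 chains was 0.815 for Ckm, 0.765 for Sypl2, 0.510 for Cacna1s, 0.468 for Actn3, 0.393 for Myoz1, -0.421 for Mybpc1 and -0.473 for Apex1, most of the chains being near 0 there.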

How the data were processed

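Messenger RNA of the rat ventral prostate was sequenced in 16 libraries, and the authors deposited a table of raw gene counts for each age. Per the submitters' processing notes STAR, edgeR 3.34.0 and Rnor_6.0 were used, with no role stated; how reads were counted, by which annotation and with what strand setting, is not given in the sources used here. Columns were tied to samples by the labels. The set of genes and the gene lists were chosen with earlier results of these data known.

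Each age was fitted on its whole table with edgeR 4.0.16 in R 4.3.3: filterByExpr, TMM, robust quasi-likelihood fit and test, Benjamini-Hochberg adjustment over all tested genes, threshold 0.05. At PND21, 25 date-like or shared names were kept but not named. On simulated counts with known changes, the PND21 fit (14727 genes) recovered 61.2% of 2-fold and 95.5% of 4-fold changes, and the PND540 fit (14566 genes) 0% and 25.8%. Counts of replicates differed beyond sampling noise (chi-square per degree of freedom 32.2 to 880), so none was taken as a duplicate. The correlation of same-numbered libraries' deviations was over 0.1 in 1 of 3 pairs at PND21 and 1 of 4 at PND540, so the numbers were not taken as pairs.

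Heavy chain shares had been planned per kilobase of transcript, but transcript lengths were not used here, so shares are of raw counts, with exact (Clopper-Pearson) 95% intervals. A floor is 3 counts. Promoter windows and gene order come from RefSeq, GRCr8. Named genes were all 10 chains; for each list, up to 4 called genes with the smallest p, or else 2; and the 8 genes outside the set most like it by Pearson r of log2 CPM (prior count 2) among tested genes with a mean of at least 1 CPM and a symbol that is no clone name. A gene that the rule takes is not reported here. Genes named beyond that rule (Myh11, Mef2c, Mef2d, Ryr1, Tnnc1, Myod1, Myf5, Myf6, Tbx15, Pax7, Trim55, Smyd1, Nppa, Nppb, Myl7, Tnni3, Upk2 and Upk3a) were chosen from the lists after their values were seen. Alternatives were DESeq2 1.42.0, RLE scaling, unscaled library sizes, 2 other filters (none, or at least 1 CPM), a replicate block and leaving out each library. Figures were drawn with matplotlib 3.10.9.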

Additional observations from a re-analysis of the deposited data

Results flagged for a closer look

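Of 23 groups of 4 or 5 libraries scanned, 4 had a library far from the rest of its group. Chance would flag about 1 in 20 groups of normally distributed values. That rate does not hold for counts near 0, as in the Myh4 and Myh8 groups below, so 4 is not read as an excess. Mylpf, the regulatory light chain of fast fibres, had 10.8 CPM in CTR replicate 5 at PND540, and the next highest CTR library had 5.15 CPM. That library also had the lowest correlation with the other PND540 libraries. Myh4, the IIb heavy chain, had 0.312 CPM in GLLP replicate 4 at PND540, from 11 counts, while the other GLLP libraries had 1 or 2 counts. It had 1.17 CPM in CTR replicate 4 at PND540, from 48 counts, while the other CTR libraries had 0 or 2 counts. The same CTR library held the highest Myl1 level at PND540, with 17 counts. Myh8, the perinatal heavy chain, had 0.113 CPM in CTR replicate 2 at PND21, from 4 counts, and 0 counts in the other CTR libraries.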

How the results depend on the processing

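The log2 fold changes of the 8 chains at PND21 were above 0 under every alternative that kept the gene, and their median was 4.46 to 4.79 when 1 library was left out. With a filter at 1 CPM the median was 5.86, over the 6 chains kept. Myh8 reached 11.0 without CTR replicate 2, a value that depends on the prior count because CTR is then at 0. The numbers of genes called at PND21, 150 higher and 16 lower, were 625 and 25 with library size alone, 671 and 301 with DESeq2, and 27 and 0 with a replicate block; without a filter 26 were lower. Leaving out 1 library gave 60 to 795 higher and 2 to 714 lower, the largest counts without GLLP replicate 2; the causes were not tested. Unscaled library sizes shifted all PND21 values by a median of 0.14 (log2), little beside the chains' own differences. Same-numbered PND21 libraries had correlations of -0.14, 0.15 and -0.12, and same-numbered PND540 libraries of -0.17, -0.09, 0.05 and 0.30; a CTR library was closest to the GLLP library of its own number in 1 of 3 and 1 of 4 cases, so the numbers were not taken as pairs. Among the list genes named, the replicate block removed the calls of Trim63, Tnnc2, Tnni1, Tnnt1, Lmod3, Actc1, Acta1, Myog and Pvalb. At PND540 DESeq2 called 2 genes, leaving out 1 library gave 0, and Myh2 turned to -0.23 without GLLP replicate 3, with a range of -0.23 to 1.14; Myh1 ranged from 0.14 to 0.83 and Mylpf from -0.69 to -0.24. With Myh4 left out of the sum, the PND21 share of Myh7 was 18.9%, 48.1% and 11.9% in GLLP replicates 2, 3 and 4, and 69.2%, 66.7%, 76.5% and 81.8% in CTR replicates 1 to 4. That of Myh3 then overlapped, at 13.6% to 32.2% in GLLP and 18.2% to 30.8% in CTR. The make-up per kilobase of transcript was not run. Chains with under 10 counts in most libraries of both groups, as at PND540, allow no statement on a difference. Where only the CTR libraries were that low, as for Myl1 and Myh8 at PND21, the size of the difference is uncertain.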
